A study of Mus musculus with 16 samples.

Results

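The genes described here are 9 members of the p53 and Arf pathway: Trp53, Mdm2, Mdm4, Cdkn2a, Cdkn1a, Ccng1, Sesn2, Trp53inp1 and Phlda3. They were taken by symbol from the 24411 genes of the mouse count and TPM tables, and all 9 passed the filter on low counts that left 16665 genes for testing. The study asked how Runx1t1, a transcriptional co-repressor, bears on neuroblastoma in Th-MYCN mice. These mice carry human MYCN behind a tyrosine hydroxylase promoter, which directs it to neural crest derivatives such as sympathetic ganglia, where tumors arise. The 16 libraries fell into 5 groups. Control ganglia (n = 4) were celiac ganglia of 2-week-old mice with no transgene and wild-type Runx1t1, and control het ganglia (n = 3) came from transgene-free mice labelled heterozygous for Runx1t1. MYCN ganglia (n = 3) and MYCN het ganglia (n = 2) were taken at the same age from mice homozygous for the transgene, with wild-type Runx1t1 or labelled heterozygous. Tumors (n = 4) came from transgene-homozygous mice with wild-type Runx1t1, and their age was not given in the sources used here. The heterozygous mice carried an insertion that inactivates Runx1t1. The sources do not say that each library came from a separate animal, so p-values measure the spread between these libraries.

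The transcription factor p53, encoded by Trp53, is held low in unstressed cells by Mdm2, a ubiquitin ligase that marks it for degradation, and by the related protein Mdm4, which binds it and blocks transactivation. Arf, made from one of the promoters of Cdkn2a, binds Mdm2 and so relieves p53, while the other promoter gives Ink4a, an inhibitor of Cdk4 and Cdk6. Active p53 raises Cdkn1a, which stops the cell cycle, and Ccng1, Sesn2, Trp53inp1, Phlda3 and Mdm2 itself, the last closing a negative feedback loop. Myc proteins are known to induce Arf, and neuroblastomas are usually wild-type for p53 at diagnosis.

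The libraries held from 10692299 to 38618757 expected counts, and the tumors held 27096032 or more. Rn45s, a ribosomal RNA gene, took 8.57% to 12.8% of counts in tumors and 2.15% to 8.80% in ganglia. Runx1t1 itself had 2.78 to 4.41 TPM in control ganglia, 4.36 to 6.28 TPM in control het ganglia, 7.90 to 70.34 TPM in MYCN ganglia, 8.83 and 16.86 TPM in MYCN het ganglia, and 29.51 to 55.81 TPM in tumors. Runx1t1 RNA thus did not separate the libraries of the het groups from those of their wild-type counterparts, and the word het follows the labels. Without the transgene the edgeR log2 difference was 0.41 ± 0.524 SE (unadjusted p = 0.442, adjusted p = 0.993). With the transgene it was −1.74 ± 0.660 SE (edgeR unadjusted p = 0.0196, adjusted p = 0.350). Markers of sympathetic neurons were high in all 12 ganglia, at a summed 4837 to 12959 TPM over 10 genes, against 2163 to 3515 TPM in tumors. A pair of libraries stood apart. Control ganglion replicate 2 had a summed 691.3 TPM of 5 lymphocyte genes and 575.1 TPM of 6 myeloid genes, whereas no other library exceeded 6.30 TPM of the lymphocyte genes. MYCN ganglion replicate 1 had 1171 TPM of 8 cycling-cell genes, close to the 1392 to 1673 TPM of tumors, while replicates 3 and 4 had 119.5 and 623.5 TPM and MYCN het ganglia 92.0 and 246.8 TPM. Control ganglion replicate 2 had 320.6 TPM of them and the 6 other transgene-free ganglia 64.8 to 89.7 TPM.

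In tumors, RNA for p53 and for Mdm2, its inhibitor and target, was higher than in each of the 3 ganglion groups compared. Of the other p53 targets among the members, Cdkn1a, Trp53inp1 and Phlda3 were lower in each comparison, and Ccng1 and Sesn2 were not called. Cdkn1a was 3.20-fold lower in tumors than in control ganglia, Phlda3 4.23-fold lower and Trp53inp1 4.44-fold lower, while Trp53 was 2.29-fold higher and Mdm2 1.83-fold higher. Without control ganglion replicate 2, the log2 difference from control ganglia went from 1.195 to 1.82 for Trp53 and from −2.15 to −1.45 for Trp53inp1, and without tumor replicate 1 it went from −2.08 to −2.73 for Phlda3. Against MYCN ganglia, 2 of the 9 genes were called higher and 3 lower, where 14.0% of all genes tested were called higher and 20.5% lower. Against MYCN het ganglia, 3 were higher and 3 lower, with 22.0% and 23.5% of all genes. Against control ganglia, 3 were higher and 3 lower, with 27.0% and 30.7% of all genes. A call here means an adjusted p under 0.05 in edgeR's quasi-likelihood test over all genes, fitted on RSEM expected counts. The comparisons share the same 4 tumors, so their agreement is not independent. In bulk tissue, fewer cells of a type and less RNA per cell cannot be told apart.

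The counts moved with single libraries. Against MYCN ganglia, the 5 calls became 2 without MYCN ganglion replicate 3, 3 without tumor replicate 2, 3 or 4, 4 without MYCN ganglion replicate 4 and 6 without MYCN ganglion replicate 1. For MYCN het ganglia, the 6 calls became 2 without replicate 1 and 4 without replicate 2 of these ganglia. Against control ganglia there were 6 or 7 calls whichever library was left out, and 7 without replicate 2. The number of all genes called moved too. Against MYCN ganglia it was 5755, and 3549 without MYCN ganglion replicate 3, 4901, 5079 and 4781 without tumor replicates 2, 3 and 4, 4057 without MYCN ganglion replicate 4 and 6755 without its replicate 1. Against MYCN het ganglia it was 7582, and 4313 and 5704 without replicates 1 and 2 of these ganglia.

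**Figure D1:**
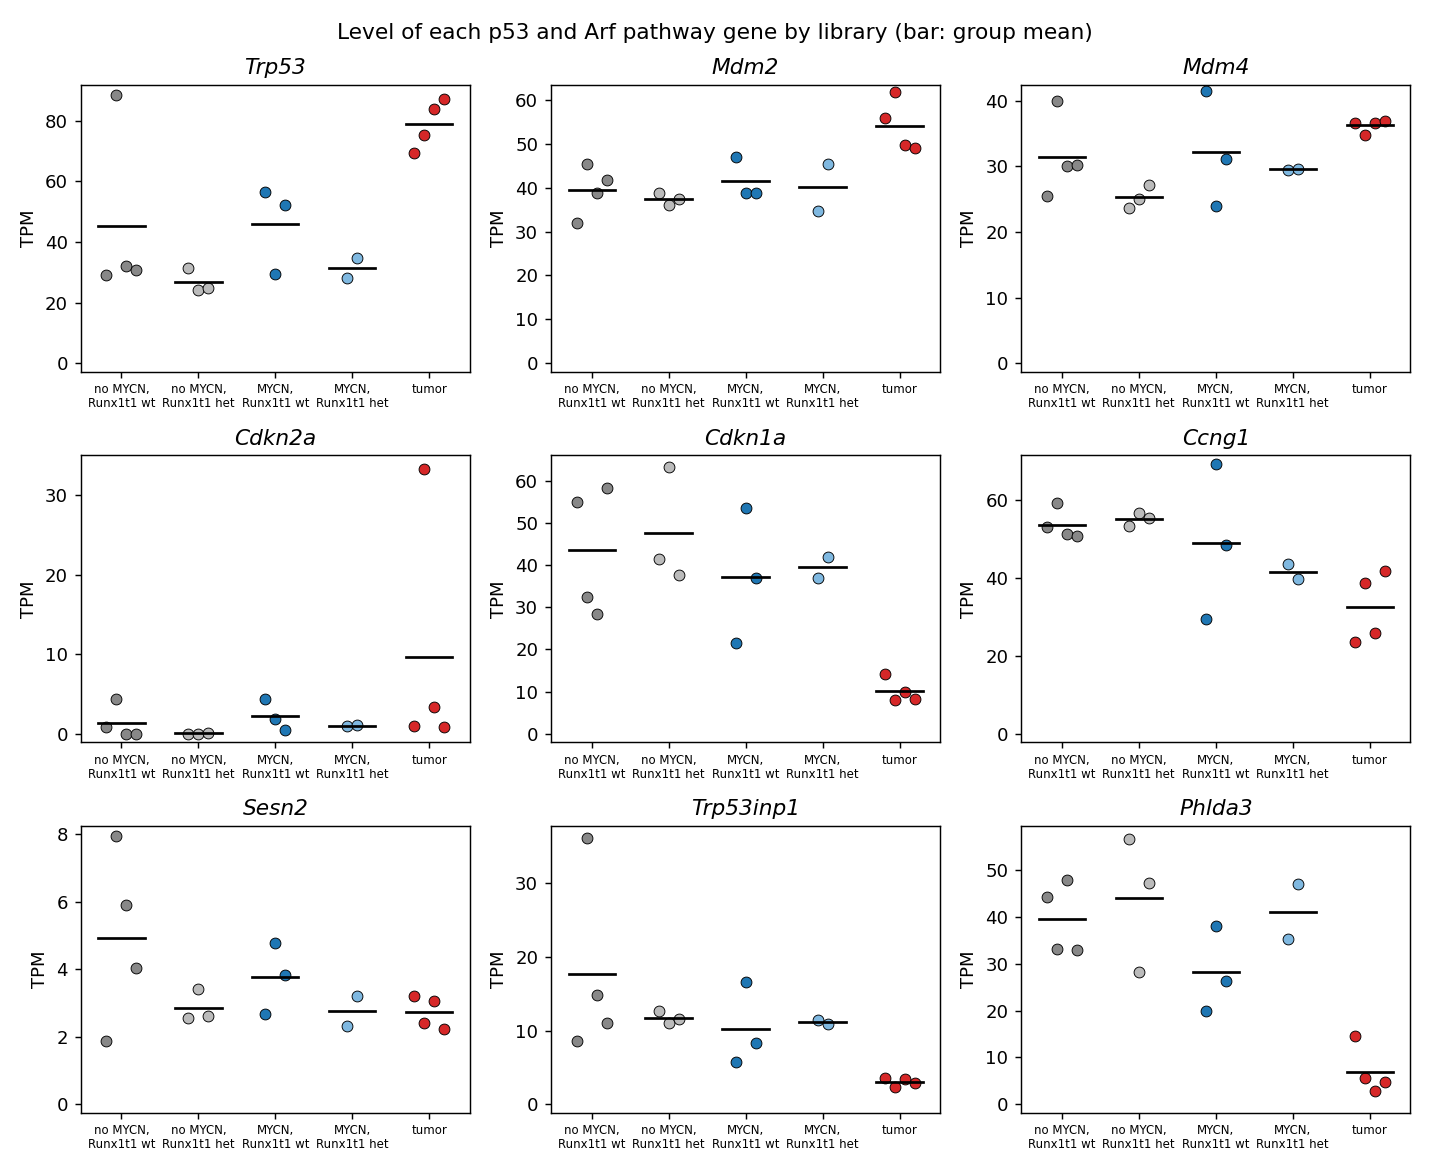
Level of each of the 9 genes in TPM (linear axis from 0) in every library, by group, with a bar at the group mean; "no MYCN" marks the transgene-free ganglia. Tumor points lie above all ganglia for Mdm2 (48.98 to 61.90 TPM) and below all ganglia for Cdkn1a (7.91 to 14.17 TPM), Trp53inp1 (2.34 to 3.51 TPM) and Phlda3 (2.84 to 14.48 TPM).

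**Figure D2:**
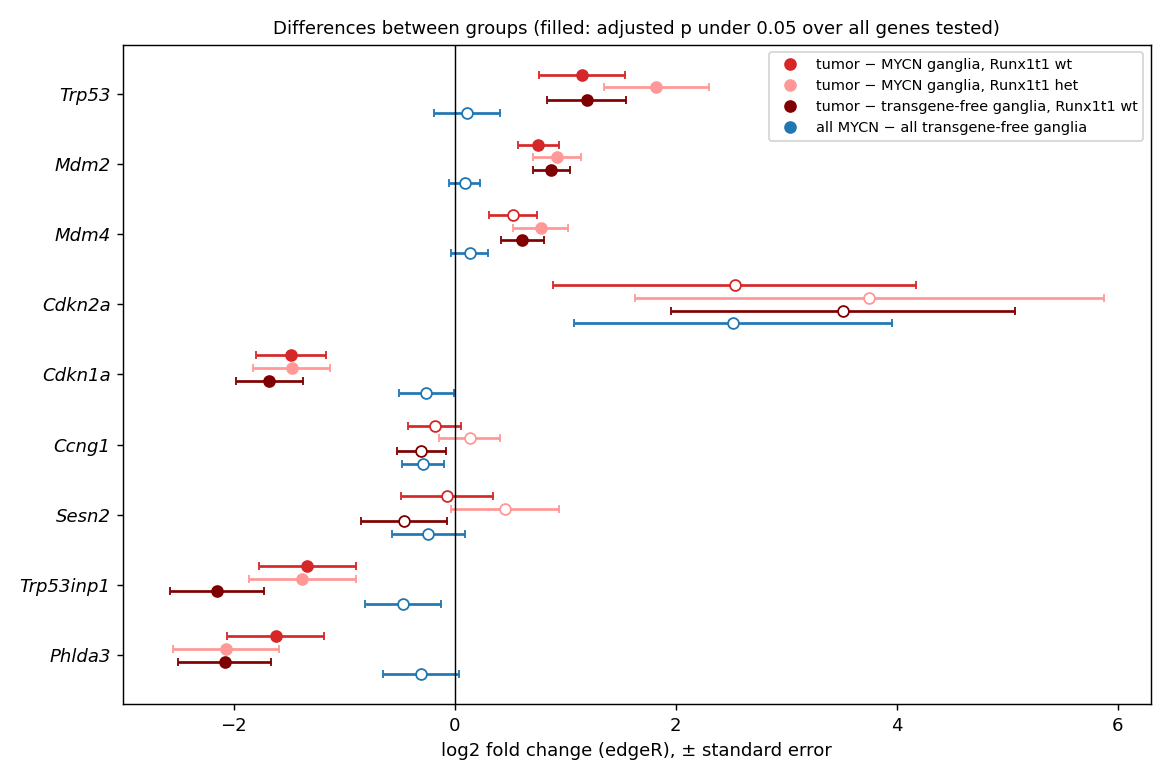
Log2 fold change of each gene from the edgeR fit, with its standard error as a bar, in the 3 tumor comparisons and in all MYCN against all transgene-free ganglia; filled points have an adjusted p under 0.05 over all genes tested. Filled points are found for Trp53, Mdm2 and Mdm4 on the higher side and for Cdkn1a, Trp53inp1 and Phlda3 on the lower side, and all points of the ganglion comparison are open. That of Cdkn2a rests on control het ganglia with 1 count.

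On the TPM scale, which divides by transcript length and so lets genes be compared with each other, Ccng1 led in control ganglia with a mean of 53.7 TPM, followed by Trp53 (45.2), Cdkn1a (43.5), Phlda3 (39.5), Mdm2 (39.5) and Mdm4 (31.4). Neighbours in this order overlapped between libraries. Below them came Trp53inp1 (17.6), Sesn2 (4.93) and, lowest, Cdkn2a, and Trp53inp1 exceeded Sesn2 in all 4 libraries. Without replicate 2, the mean of Trp53 in control ganglia was 30.8 TPM and that of Trp53inp1 11.5 TPM. In tumors the order began with Trp53 (79.0), Mdm2 (54.1) and Mdm4 (36.2), each above the range of the next except that Mdm4 overlapped Ccng1 (32.6). Cdkn1a (10.1), Cdkn2a (9.65), Phlda3 (6.91), Trp53inp1 (3.04) and Sesn2 (2.72) followed, and each overlapped the next. Without tumor replicate 2 the mean of Cdkn2a was 1.75 TPM.

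Trp53 (chr11:69580359-69591873, plus strand, GRCm38) encodes the transcription factor at the centre of the pathway. Its RefSeq promoter window is shown because Trp53 was called higher in tumors, and it holds both a match to the p53 decamer, the single copy of the sequence that p53 binds in tandem, and an E-box (CACGTG), the sequence that Myc and Max bind. The window runs from 250 bases before to 30 bases after the annotated start (GRCm38.p6, chr11:69580109-69580388, plus strand). Capitals mark the decamer at −75 to −66 and the E-box at 11 to 16, counted from the start as 1.
Trp53: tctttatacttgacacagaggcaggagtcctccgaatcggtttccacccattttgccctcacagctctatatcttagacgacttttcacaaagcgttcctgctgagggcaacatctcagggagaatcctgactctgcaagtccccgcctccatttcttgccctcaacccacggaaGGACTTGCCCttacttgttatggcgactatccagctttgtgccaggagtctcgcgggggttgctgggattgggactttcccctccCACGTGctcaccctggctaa

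Trp53 had 29.26, 88.63, 32.25 and 30.80 TPM in control ganglia and 31.48, 24.22 and 24.72 TPM in control het ganglia. With the transgene it had 56.43, 29.43 and 52.22 TPM in MYCN ganglia and 28.12 and 34.58 TPM in MYCN het ganglia. The tumors had 69.53, 75.27, 83.86 and 87.37 TPM. All 4 tumors thus exceeded 11 of the 12 ganglia, and the exception was control ganglion replicate 2, the library with lymphocyte RNA. In edgeR, the log2 difference of tumors was 1.15 ± 0.391 (SE) against MYCN ganglia (adjusted p = 0.0350), 1.82 ± 0.472 against MYCN het ganglia (adjusted p = 0.00628) and 1.195 ± 0.356 against control ganglia (adjusted p = 0.0110). Without control ganglion replicate 2 the last value was 1.82 (adjusted p = 3.09e-05). The call against MYCN ganglia was lost when any of 5 libraries was left out, with adjusted p = 0.152 without MYCN ganglion replicate 3, 0.0829 without its replicate 4, and 0.0562, 0.0572 and 0.0692 without tumor replicates 2, 3 and 4. The call against MYCN het ganglia was lost without replicate 1 of these ganglia (log2 1.67, adjusted p = 0.0797), and the difference was 2.55 with a depth term. Tested against a minimum fold of 1.5, the call against MYCN ganglia was lost (adjusted p = 0.131) and the other two were kept (0.0190 and 0.0466).

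Mdm2 (chr10:117688875-117710758, minus strand), the ubiquitin ligase for p53, is both a regulator and a target. Its window (GRCm38.p6, chr10:117710729-117711008, minus strand) is shown as that of a p53 target that was called higher, and holds 1 decamer match at −186 to −177, in capitals, and no E-box.
Mdm2: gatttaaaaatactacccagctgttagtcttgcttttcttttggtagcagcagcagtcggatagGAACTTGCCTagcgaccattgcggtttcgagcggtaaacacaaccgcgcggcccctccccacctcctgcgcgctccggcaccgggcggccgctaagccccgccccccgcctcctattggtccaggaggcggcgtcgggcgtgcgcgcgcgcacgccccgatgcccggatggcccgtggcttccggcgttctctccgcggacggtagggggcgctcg

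Mdm2 varied little among ganglia, with 31.89, 45.48, 38.87 and 41.76 TPM in control ganglia, 38.90, 36.05 and 37.44 TPM in control het ganglia, 47.08, 38.89 and 38.78 TPM in MYCN ganglia, and 34.75 and 45.33 TPM in MYCN het ganglia. The tumors had 55.85, 61.90, 49.75 and 48.98 TPM, all above every ganglion. The log2 difference was 0.76 ± 0.183 (SE) against MYCN ganglia (edgeR adjusted p = 0.00630), 0.93 ± 0.213 against MYCN het ganglia (adjusted p = 0.00309) and 0.87 ± 0.168 against control ganglia (adjusted p = 0.000583). The call was lost without MYCN het ganglion replicate 1 (0.72, adjusted p = 0.0683). Tested against a minimum fold of 1.5 in place of any difference, the adjusted p was 0.209 against MYCN ganglia, 0.0568 against MYCN het ganglia and 0.0395 against control ganglia.

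Mdm4 (chr1:132959484-133030561, minus strand), the second inhibitor, moved less. It had 25.43, 39.97, 30.06 and 30.11 TPM in control ganglia, 23.69, 24.95 and 27.18 TPM in control het ganglia, 41.48, 23.90 and 31.06 TPM in MYCN ganglia, 29.47 and 29.57 TPM in MYCN het ganglia, and 36.56, 34.79, 36.64 and 36.95 TPM in tumors. In TPM the tumors lay close to each other and below a pair of single ganglia, control replicate 2 and MYCN replicate 1, the same libraries that stood apart in their markers. This order depended on the scale. In CPM the tumors had 139.8 to 148.3, control replicate 2 had 128.1 and MYCN replicate 1 had 140.1. In edgeR, Mdm4 was higher in tumors than in MYCN het ganglia (log2 0.78 ± 0.248 SE, adjusted p = 0.0201) and control ganglia (0.61 ± 0.196 SE, adjusted p = 0.0163), and did not pass the threshold against MYCN ganglia (0.53 ± 0.214 SE, adjusted p = 0.0708). It did without MYCN ganglion replicate 1 (0.85, adjusted p = 0.00346), in DESeq2 (adjusted p = 0.0439), with a depth term (0.0229) and without Rn45s (0.0398). The MYCN het comparison lost its call without their replicate 1 (0.75, adjusted p = 0.127) or replicate 2 (0.81, adjusted p = 0.0889). With a minimum fold of 1.5 the calls against MYCN het and control ganglia were both lost (adjusted p = 0.187 and 0.349).

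Cdkn2a (chr4:89274471-89294653, minus strand) encodes both Arf and Ink4a. Its annotated transcripts share exon 2 (chr4:89276645-89276985) and differ in exon 1, which lies at chr4:89294334-89294653 for the Arf start and at chr4:89281986-89282192 for the Ink4a start, so a count per gene cannot tell the proteins apart. Cdkn2a was near the detection limit in most ganglia. It had 0.81, 4.37, 0 and 0 TPM in control ganglia, from 3, 15, 0 and 0 counts, and 0, 0 and 0.11 TPM in control het ganglia, from 0, 0 and 1 count. With the transgene every library had counts: 4.37, 1.89 and 0.43 TPM in MYCN ganglia (16, 15 and 5 counts), and 1.00 and 1.06 TPM in MYCN het ganglia (4 counts each). The tumors had 0.94, 33.33, 3.41 and 0.90 TPM (10, 498, 38 and 12 counts). A single tumor, replicate 2, held 87.1% of the summed CPM of the 4 tumors (counts per library size scaled by TMM) and was 10.4 times the next on that scale. The same tumor had the highest summed level of myeloid genes among tumors, 265.4 TPM against 95.4 to 150.6 TPM, and among ganglia the highest levels, 4.37 TPM each, were in control replicate 2 and MYCN replicate 1, which had the highest myeloid sums of the ganglia at 575.1 and 111.7 TPM. The part of myeloid cells in the Cdkn2a level was not tested.

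No difference in Cdkn2a passed the threshold in edgeR, with a log2 difference of tumors of 2.53 ± 1.64 (SE) against MYCN ganglia (adjusted p = 0.248), 3.75 ± 2.12 against MYCN het ganglia (adjusted p = 0.165) and 3.51 ± 1.56 against control ganglia (adjusted p = 0.0672). Without tumor replicate 2, the difference from MYCN ganglia was −0.010. Against control ganglia, Cdkn2a passed the threshold when control replicate 2 was left out, which leaves 3, 0 and 0 counts and no usable fold (adjusted p = 0.0116), when tumor replicate 1 (adjusted p = 0.0493) or 4 (adjusted p = 0.0494) was left out, in DESeq2 (3.43, adjusted p = 0.0353), and with a replicate block (3.75, adjusted p = 0.0137) or a depth term (adjusted p = 0.0123). With the depth term it also passed against MYCN het ganglia (adjusted p = 0.0330). That term took the log2 difference to 6.41 against control and 7.14 against MYCN het ganglia. With the replicate block the difference from MYCN ganglia was 0.71 (edgeR adjusted p = 0.654). Without tumor replicate 2 the difference was 0.96 from control and 1.22 from MYCN het ganglia. Without tumor replicate 2 the 3 other tumors had a mean of 1.75 ± 1.44 TPM (SD), which did not stand above the MYCN ganglia at 2.23 ± 1.99 TPM (SD).

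Cdkn1a (chr17:29090976-29100727, plus strand) encodes p21, the Cdk inhibitor through which p53 halts the cell cycle. It has a pair of annotated starts. The window of the upstream one (GRCm38.p6, chr17:29090729-29091008, plus strand) is shown because Cdkn1a is the best known p53 target and fell in every tumor comparison. Capitals mark its 2 exact matches to the decamer RRRCWWGYYY (R is A or G, W is A or T, Y is C or T). They lie at −73 to −64 and −51 to −42, 12 bases apart. Near matches were not counted or marked, among them the tgacatgttc that directly follows the match at −51. Which of these p53 binds was not tested.
Cdkn1a: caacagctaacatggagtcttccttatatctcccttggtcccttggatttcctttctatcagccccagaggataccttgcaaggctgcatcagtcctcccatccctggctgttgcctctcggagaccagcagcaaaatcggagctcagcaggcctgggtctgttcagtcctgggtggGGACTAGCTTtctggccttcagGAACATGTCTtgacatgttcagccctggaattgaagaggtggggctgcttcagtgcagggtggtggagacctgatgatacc

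Of 32851 RefSeq promoter windows of this length, 7.84% held at least 1 exact match to the decamer and 6.79% held the E-box. In 0.07% there were 2 exact matches with at most 13 bases between them, as in Cdkn1a. Both motifs read the same on either strand and do not overlap here. Windows were available for 8 of the 9 genes, 11 in all because some have several starts. The others with a decamer were Trp53, Mdm2 and Ccng1, and Trp53 alone had an E-box. Each marked stretch is a sequence match only, and binding of p53 or Myc there was not tested.

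Cdkn1a had 54.89, 32.54, 28.35 and 58.23 TPM in control ganglia, 41.50, 63.22 and 37.75 TPM in control het ganglia, 21.50, 53.51 and 36.84 TPM in MYCN ganglia, and 37.02 and 41.88 TPM in MYCN het ganglia. The tumors had 14.17, 7.91, 9.98 and 8.28 TPM, and the highest of them was below the lowest ganglion, MYCN replicate 1. The log2 difference was −1.48 ± 0.318 (SE) against MYCN ganglia (edgeR adjusted p = 0.00302), −1.47 ± 0.349 against MYCN het ganglia (adjusted p = 0.00368) and −1.68 ± 0.303 against control ganglia (adjusted p = 0.000363). Cdkn1a kept its call in all 3 comparisons under every alternative run, with adjusted p between 6.84e-07 and 0.0339. Summed glial markers, 39.8 to 50.3 TPM in tumors and 521.4 to 2226 TPM in ganglia, fell with Cdkn1a. So did fibroblast markers, 170.8 to 506.4 TPM and 888.0 to 7899 TPM, and sympathetic neuron markers, 2163 to 3515 TPM and 4837 to 12959 TPM. The part of these cell types in the level of Cdkn1a was not tested.

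Trp53inp1 (chr4:11156431-11174379, plus strand) encodes a stress-induced nuclear protein that promotes p53 activity. It had 8.51, 36.04, 14.81 and 11.07 TPM in control ganglia, 12.67, 10.99 and 11.57 TPM in control het ganglia, 5.74, 16.52 and 8.33 TPM in MYCN ganglia, 11.42 and 10.82 TPM in MYCN het ganglia, and 3.51, 2.34, 3.40 and 2.92 TPM in tumors. All tumors were below all ganglia, the lowest ganglion again being MYCN replicate 1 and the highest control replicate 2. In edgeR, Trp53inp1 was lower in tumors than in MYCN ganglia (log2 −1.34 ± 0.439 SE, adjusted p = 0.0303), MYCN het ganglia (−1.38 ± 0.484, adjusted p = 0.0314) and control ganglia (−2.15 ± 0.425, adjusted p = 0.000717). The last value was −1.45 without control replicate 2 and still past the threshold. The call against MYCN ganglia was lost without MYCN ganglion replicate 3 (−0.84, adjusted p = 0.208) and without tumor replicate 2 (0.0727), 3 (0.0503) or 4 (0.0626). Against MYCN het ganglia it was lost without their replicate 1 (adjusted p = 0.128) or 2 (adjusted p = 0.104), and without tumor replicate 2 (adjusted p = 0.0681) or 4 (adjusted p = 0.0578), as well as with a replicate block (adjusted p = 0.0620) or a depth term (adjusted p = 0.173). With a minimum fold of 1.5 the calls against MYCN and MYCN het ganglia were lost (adjusted p = 0.102 and 0.0805).

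Phlda3 (chr1:135766119-135769136, plus strand), a p53 target that competes with Akt for membrane lipids and so dampens Akt signalling, was lower in tumors throughout. It had 44.19, 33.08, 47.92 and 32.83 TPM in control ganglia, 56.67, 28.21 and 47.10 TPM in control het ganglia, 19.85, 38.11 and 26.37 TPM in MYCN ganglia, and 35.19 and 46.95 TPM in MYCN het ganglia. The tumors had 14.48, 5.61, 2.84 and 4.69 TPM, so tumor replicate 1 was above the other 3 and still below every ganglion. The log2 difference was −1.62 ± 0.439 (SE) against MYCN ganglia (edgeR adjusted p = 0.0118), −2.07 ± 0.480 against MYCN het ganglia (adjusted p = 0.00324) and −2.08 ± 0.423 against control ganglia (adjusted p = 0.000875). The call against MYCN ganglia was lost without MYCN ganglion replicate 3 (−1.36, adjusted p = 0.0615) and when only the groups compared were fitted (−1.64, adjusted p = 0.0599). Without tumor replicate 1 the differences were −2.26 against MYCN, −2.71 against MYCN het and −2.73 against control ganglia.

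Ccng1 (chr11:40748552-40755311, minus strand), which encodes cyclin G1, was not called in any comparison. Its window (GRCm38.p6, chr11:40755257-40755536, minus strand) is shown as that of a target with a decamer, at −185 to −176, that was not called.
Ccng1: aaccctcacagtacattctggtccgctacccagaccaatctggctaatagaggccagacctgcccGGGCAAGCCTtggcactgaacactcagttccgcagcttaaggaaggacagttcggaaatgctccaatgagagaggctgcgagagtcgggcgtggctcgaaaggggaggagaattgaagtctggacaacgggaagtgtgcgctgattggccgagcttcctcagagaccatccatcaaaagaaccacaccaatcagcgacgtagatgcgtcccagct

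Ccng1 had 53.08, 59.21, 51.43 and 50.97 TPM in control ganglia and 53.54, 56.71 and 55.60 TPM in control het ganglia. It had 29.63, 69.28 and 48.48 TPM in MYCN ganglia, 43.63 and 39.82 TPM in MYCN het ganglia, and 23.56, 38.79, 26.00 and 41.89 TPM in tumors. All tumors were below all 7 transgene-free ganglia on the TPM scale, and overlapped both MYCN groups. The ratio of the tumor mean to the control mean was 0.607 in TPM and 0.810 in CPM scaled by TMM, the scale of the test, and the log2 difference of −0.30 ± 0.223 (SE) did not pass (edgeR adjusted p = 0.258). For all 9 genes this ratio was lower in TPM, and for none did it cross 1. Against MYCN ganglia the log2 value was −0.18 ± 0.240 (adjusted p = 0.584) and against MYCN het ganglia 0.14 ± 0.274 (adjusted p = 0.711).

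Sesn2 (chr4:132492032-132510501, minus strand), which encodes a stress sensor that restrains mTORC1, was low throughout. It had 1.87, 7.94, 5.89 and 4.03 TPM in control ganglia, 2.57, 3.40 and 2.62 TPM in control het ganglia, 2.66, 4.77 and 3.84 TPM in MYCN ganglia, 2.32 and 3.22 TPM in MYCN het ganglia, and 3.20, 2.40, 3.06 and 2.22 TPM in tumors. The groups overlapped, and the spread was widest among control ganglia, where replicate 2 was highest. The log2 difference of tumors was −0.072 ± 0.418 (SE) against MYCN ganglia (edgeR adjusted p = 0.909), 0.46 ± 0.488 against MYCN het ganglia (adjusted p = 0.470) and −0.46 ± 0.388 against control ganglia (adjusted p = 0.323). The last value was −0.075 without control replicate 2 and −0.72 without control replicate 1 (edgeR adjusted p = 0.0756). Against MYCN het ganglia it was 0.22 without their replicate 1 and 0.74 without their replicate 2.

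Among the ganglia, none of the 9 genes was called in edgeR in any of 6 comparisons, and none had an unadjusted p under 0.05 or was called by DESeq2. The share of all genes called was 0.936% for MYCN against control ganglia, 0% for MYCN het against control het ganglia, 0.0420% for all MYCN against all transgene-free ganglia, 0.0120% for MYCN het against MYCN ganglia, 0% for control het against control ganglia and 0% for the interaction of transgene and Runx1t1 genotype. An unadjusted p under 0.05 was found for 3302, 242, 1574, 2094, 687 and 937 genes in this order, and DESeq2 called 1274, 14, 361, 251, 2 and 30 genes. The members thus gave no call, in comparisons where edgeR called few genes after adjustment.

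The comparison of all 5 MYCN with all 7 transgene-free ganglia held the most libraries. Its log2 differences were small for Trp53 (0.11 ± 0.297 SE), Mdm2 (0.091 ± 0.141) and Mdm4 (0.14 ± 0.165), and negative for Cdkn1a (−0.26 ± 0.249), Ccng1 (−0.28 ± 0.189), Sesn2 (−0.24 ± 0.331), Trp53inp1 (−0.47 ± 0.347) and Phlda3 (−0.30 ± 0.344). For Cdkn2a no fold is given, since control het ganglia held a single count (edgeR unadjusted p = 0.102, adjusted p = 0.601), and its levels overlapped through control replicates 1 and 2. Without replicate 1 of the MYCN ganglia, the signs of Trp53 (−0.012), Mdm2 (−0.00027) and Mdm4 (−0.026) turned. Without control replicate 2, Trp53 was 0.42 (unadjusted p = 0.0317, adjusted p = 0.323 in edgeR), Trp53inp1 −0.12 and Sesn2 −0.053. For Cdkn2a the unadjusted p was then 0.0191 (adjusted p = 0.270 in edgeR). With all libraries and a replicate block it was 0.0488 (adjusted p = 0.758). Without MYCN ganglion replicate 3, Ccng1 was −0.43 (unadjusted p = 0.0269, adjusted p = 0.203 in edgeR) and Cdkn1a −0.42. Cdkn1a was −0.12 without control het replicate 3.

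In the comparisons of single groups, the smallest p among the members belonged to Trp53 in control het against control ganglia (log2 −0.81, unadjusted p = 0.0553), and without control replicate 2 it was −0.20 (unadjusted p = 0.411). In MYCN het against MYCN ganglia it was again Trp53 (−0.67, unadjusted p = 0.171), whose het levels of 28.12 and 34.58 TPM overlapped the 29.43 to 56.43 TPM of the MYCN ganglia. With a replicate block this difference was −1.12 (unadjusted p = 0.0257, adjusted p = 0.234 in edgeR). It was −1.12 with a depth term (0.0217 and 0.214) and −0.42 without MYCN ganglion replicate 1. In MYCN against control ganglia the smallest p was that of Trp53inp1 (−0.82, unadjusted p = 0.0903), with −0.12 (unadjusted p = 0.681) without control replicate 2 and −1.31 (unadjusted p = 0.0194, adjusted p = 0.108 in edgeR) without MYCN ganglion replicate 3. For Cdkn2a no fold is given against control het ganglia, where a single count was found in 3 libraries. Between MYCN het and control het ganglia the TPM ranges did not overlap for 3 of the 9 members, Ccng1 (log2 −0.45, unadjusted p = 0.145), Mdm4 and Cdkn2a, and for 22.8% of all genes tested, so nothing is read from this count, and none of the 3 was called.

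Other genes of the pathway were taken from 3 lists. Of 38 further p53 targets, 5 were higher and 8 lower in tumors than in MYCN ganglia, 11 and 11 than in MYCN het ganglia, and 12 and 14 than in control ganglia. The median log2 differences were 0.26, 0.20 and −0.46, beside −0.0077, 0.070 and −0.11 over all genes. Of all genes, 14.0%, 22.0% and 27.0% were called higher and 20.5%, 23.5% and 30.7% lower in these comparisons, and against MYCN ganglia the list lay near those shares. Without MYCN ganglion replicate 1, 8 were higher than in MYCN ganglia; without its replicate 3 the counts were 2 and 4, and without replicate 4 of these ganglia 2 were higher. Without tumor replicate 3 or 4, 3 were higher. Without MYCN het ganglion replicate 1 the counts against that group were 3 and 6.

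Among the higher targets, Psrc1, a spindle protein, had 0.44 to 2.75 TPM in control ganglia and 44.57 to 95.19 TPM in tumors (log2 5.70 ± 0.859 SE, edgeR adjusted p = 9.36e-05). Ckap2, another mitotic spindle protein, had 2.15 to 7.88 TPM and 32.04 to 46.66 TPM (3.31 ± 0.593, adjusted p = 0.000341). Pidd1, a death-domain protein that activates caspase-2, had 1.47 to 3.53 TPM and 10.83 to 15.89 TPM (2.93 ± 0.517, adjusted p = 0.000309). In MYCN ganglion replicate 1, with its high cycling markers, Psrc1 had 20.66 TPM and Ckap2 37.11 TPM, against 2.20 and 6.14 TPM in replicate 3. In control ganglion replicate 2 they had 2.5 and 7.88 TPM. Bax, which permeabilises the mitochondrial outer membrane in apoptosis, was higher in tumors than in MYCN ganglia (log2 0.97 ± 0.185 SE, edgeR adjusted p = 0.00146), with 81.78 to 119.65 TPM in tumors and 82.13, 56.18 and 69.59 TPM in MYCN ganglia. So was Aen, an apoptotic nuclease (1.05 ± 0.233, adjusted p = 0.00374).

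Among the lower targets, Abhd4, a lipid hydrolase, had 4.62 to 9.11 TPM in tumors and 56.22 to 102.48 TPM in control ganglia (log2 −2.96 ± 0.329 SE, edgeR adjusted p = 1.08e-05). Ephx1, the microsomal epoxide hydrolase, had 5.37 to 27.77 TPM and 85.04 to 129.68 TPM (−2.63 ± 0.421, adjusted p = 0.000146). Plk2, a polo-like kinase with roles in neurons, was lower in tumors than in MYCN ganglia (−1.26 ± 0.280, adjusted p = 0.00367) and MYCN het ganglia (−2.03 ± 0.306, adjusted p = 0.000170). Tap1, the peptide transporter of antigen presentation, was called against control ganglia (−3.27 ± 0.815, adjusted p = 0.00375), where replicate 2 with its lymphocyte RNA had 120.22 TPM and the others 11.94 to 17.77 TPM. In tumors Tap1 had 1.23 to 7.32 TPM, and without control replicate 2 the difference was −1.62 ± 0.525 (adjusted p = 0.0173).

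Of 31 regulators of p53 and Arf tested, 9 were higher and 2 lower in tumors than in MYCN ganglia, 15 and 3 than in MYCN het ganglia, and 17 and 5 than in control ganglia. Their median log2 differences were 0.39, 0.62 and 0.53, beside −0.0077, 0.070 and −0.11 over all genes, of which 14.0%, 22.0% and 27.0% were called higher and 20.5%, 23.5% and 30.7% lower. Without MYCN ganglion replicate 1, 16 were higher and 4 lower than in MYCN ganglia, without its replicate 3 or tumor replicate 4, 1 was lower, and without MYCN het ganglion replicate 1, 8 were higher than in that group. Npm1, the nucleolar protein that holds Arf, had 350.01 to 726.69 TPM in control ganglia and 1372 to 2220 TPM in tumors (log2 2.49 ± 0.330 SE, edgeR adjusted p = 3.73e-05). E2f1, which activates the Arf promoter, had 3.56 to 8.09 TPM and 38.07 to 49.29 TPM (3.46 ± 0.581, adjusted p = 0.000213). Bmi1, a Polycomb protein that represses Cdkn2a, had 14.26 to 23.45 TPM and 67.78 to 104.41 TPM (2.56 ± 0.385, adjusted p = 9.09e-05). An activator and a repressor of Cdkn2a were thus both higher than in control ganglia. Against MYCN ganglia neither was called, and both overlapped MYCN ganglion replicate 1, which had 46.34 TPM of E2f1 and 85.37 TPM of Bmi1.

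Against MYCN ganglia, the higher regulators also included Pa2g4, an Erbb3-binding protein (log2 1.45 ± 0.300 SE, edgeR adjusted p = 0.00236), and Rpl5, a ribosomal protein that binds Mdm2 (1.15 ± 0.319, adjusted p = 0.0130, and 0.0653 without MYCN ganglion replicate 3). The 2 lower ones were Tbx3 (−0.82 ± 0.265, adjusted p = 0.0278) and Zbtb7a (−0.76 ± 0.164, adjusted p = 0.00304). The call of Tbx3 was lost without MYCN ganglion replicate 3 (adjusted p = 0.122) or tumor replicate 1 (0.0584) or 4 (0.0615). Against control ganglia the lower regulators included Tbx3, a repressor of Arf, with 6.55 to 13.29 TPM in tumors and 39.27 to 89.40 TPM in control ganglia (−2.05 ± 0.256, adjusted p = 2.53e-05), Zbtb7a, another repressor of Arf (−1.43 ± 0.155, adjusted p = 9.22e-06), and Cbx7, a Polycomb protein that represses Cdkn2a (−1.68 ± 0.463, adjusted p = 0.00690). Against control ganglia, repressors of the locus therefore moved in both directions, Bmi1 up and Tbx3, Zbtb7a and Cbx7 down.

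Of 8 DNA damage and checkpoint kinases, none was called in tumors against MYCN ganglia in edgeR and 1 in DESeq2, 5 were higher and 1 lower than in MYCN het ganglia, and 6 were higher and 1 lower than in control ganglia. The shares of all genes called higher were 14.0%, 22.0% and 27.0%, and lower 20.5%, 23.5% and 30.7%. Without MYCN ganglion replicate 1, 4 were higher than in MYCN ganglia. Against MYCN het ganglia none was higher without their replicate 1, 2 without replicate 2 and 3 without tumor replicate 1 or 2. Plk1, a mitotic kinase, had 1.42 to 12.24 TPM in control ganglia and 79.92 to 158.7 TPM in tumors (log2 5.21 ± 0.895 SE, edgeR adjusted p = 0.000251). Chek1, which halts the cycle when replication stalls, had 0.18 to 2.74 TPM and 10.74 to 14.05 TPM (3.82 ± 0.911, adjusted p = 0.00275), and Wee1, which restrains Cdk1, 3.49 to 7.28 TPM and 13.92 to 20.95 TPM (2.11 ± 0.421, adjusted p = 0.000784). Chek2, which acts on p53 after DNA breaks, was higher than in MYCN het ganglia (2.42 ± 0.733, adjusted p = 0.0153, and 0.163 without replicate 1 of that group). Prkdc, the DNA-dependent protein kinase, was lower than in control ganglia (−0.92 ± 0.199, adjusted p = 0.00142), and its call against MYCN het ganglia (−0.67 ± 0.237, adjusted p = 0.0335) was lost without replicate 1 or 2 of that group or tumor replicate 1 or 4. All 8 cycling-cell markers were higher in tumors than in MYCN het and control ganglia, and 1 of 8 than in MYCN ganglia, and the part of cycling cells in the kinase levels was not tested.

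**Figure D3:**
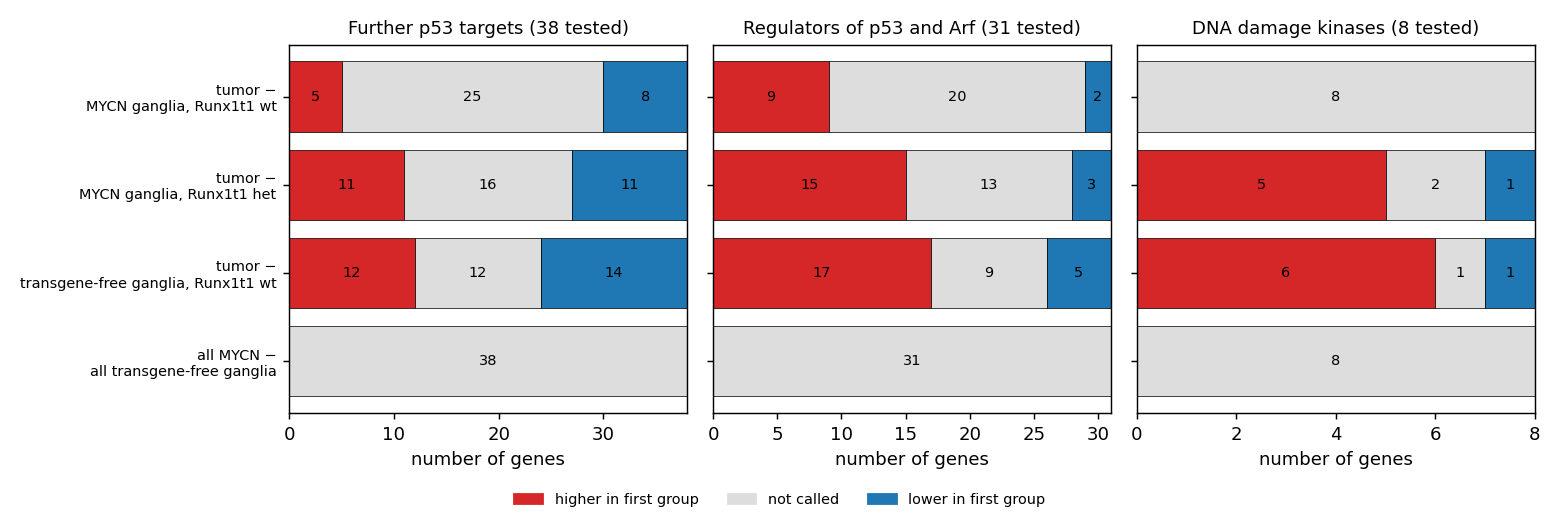
Number of genes in each of the 3 lists called higher, called lower or not called (edgeR, adjusted p under 0.05 over all genes tested) in the tumor comparisons and in all MYCN against all transgene-free ganglia. Against control ganglia, 12 further targets were higher and 14 lower, 17 regulators higher and 5 lower, and 6 kinases higher and 1 lower, and no list gene was called between the ganglia.

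No gene of the 3 lists was called in edgeR in any of the 6 ganglion comparisons. The median log2 difference of the kinases in all MYCN against all transgene-free ganglia was 0.65, beside −0.057 over all genes, and those of the further targets and regulators were −0.11 and 0.084. Summed cycling-cell markers were 119.5 to 1171 TPM in MYCN and 92.0 to 246.8 TPM in MYCN het ganglia. They were 78.6 to 320.6 TPM in control and 64.8 to 84.6 TPM in control het ganglia. The part of cycling cells in the kinase median was not tested. Among the MYCN ganglia, Chek1 had 13.19 TPM in replicate 1, inside the tumor range of 10.74 to 14.05 TPM. It had 6.95 TPM in replicate 4 and 0.57 TPM in replicate 3, below that range.

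**Figure D4:**
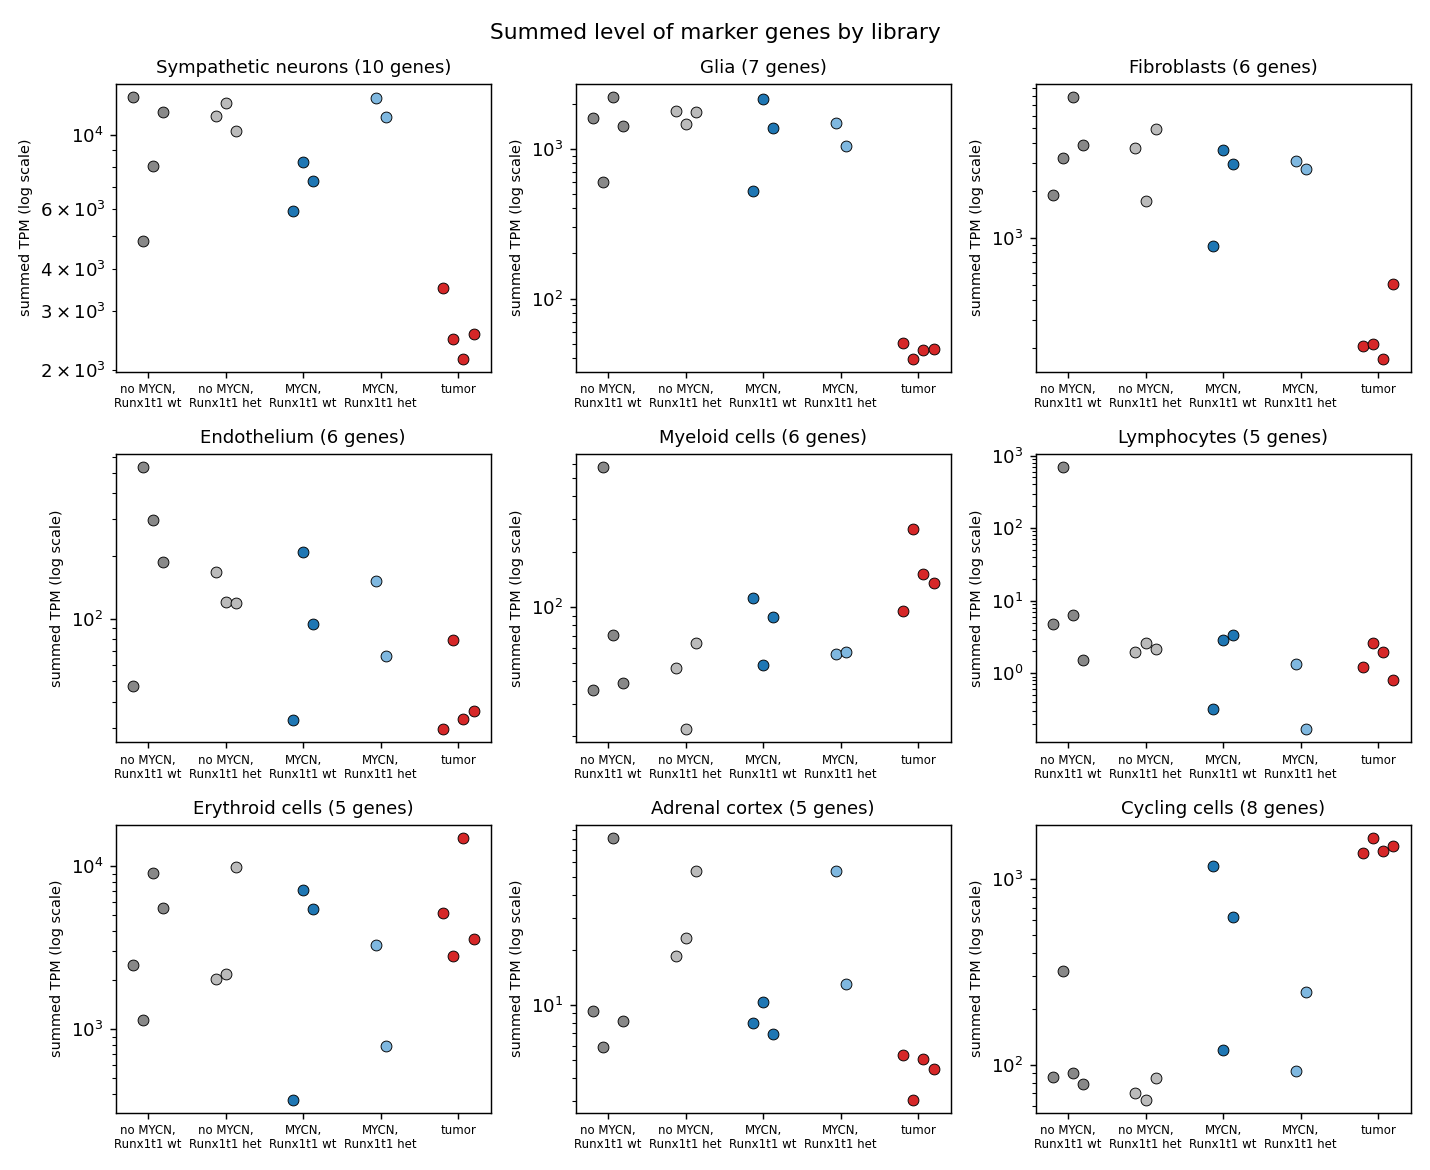
Summed TPM of the marker genes of each cell type (log axis) in every library, by group; "no MYCN" marks the transgene-free ganglia. Tumors have 39.8 to 50.3 TPM of glial and 170.8 to 506.4 TPM of fibroblast markers, below all ganglia, and control ganglion replicate 2 has 691.3 TPM of lymphocyte markers.

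Tissue composition moved with the tumor comparisons as the plot of marker sums shows. All 7 glial and all 6 fibroblast markers were called lower in each tumor comparison, while 5, 6 and 6 of 10 sympathetic neuron markers were lower and 0, 1 and 3 higher against MYCN, MYCN het and control ganglia. Of 6 endothelial markers, 1, 1 and 4 were lower. No myeloid or erythroid marker was called, and adrenal cortex markers summed to at most 5.32 TPM in tumors and 81.72 TPM in ganglia. How far these shifts enter the levels of the 9 genes was not tested.

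Over the 16 libraries, the genes most like Trp53 among 14746 with a mean of at least 1 TPM included the ribosomal protein genes Rpl10a (Pearson r of log2(TPM + 1) 0.987) and Rpl4 (0.981). Those most like Mdm2 were Ankrd54 (0.916), Ppp4r2 (0.909) and Ing5 (0.908), and those most like Cdkn1a were Chrna5 (0.977), Inpp1 (0.975) and Ablim3 (0.975). Chrna5 encodes a subunit of the nicotinic receptors of ganglion neurons. Those most like Cdkn2a were Tmem26 (0.849), Fcgr1 (0.834) and C1qb (0.824), the last 2 being genes of macrophages. These values describe libraries that share groups.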

How the data were processed

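RNA of ganglia and tumors was sequenced. The methods name a stranded total RNA kit, while the labels call the RNA polyA. The word Hom in column headers was read as wild-type Runx1t1. Per the methods, the authors aligned reads to mm10 with STAR and quantified genes with RSEM, and deposited expected counts and TPM for each gene and library. Tests used these expected counts after rounding, and levels are given in TPM, which the authors had scaled by transcript length.

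Of 24411 genes, 16665 passed edgeR's filterByExpr. All 5 groups were fitted together with TMM normalization and the quasi-likelihood test (edgeR 4.0.16 in R 4.3.3), with Benjamini-Hochberg adjustment over all genes tested and a threshold of 0.05. The design had 9 contrasts, and the SE is the log2 difference divided by the square root of F. Alternatives were DESeq2 1.42.0, other scalings and filters, a depth term, a replicate block, a minimum fold of 1.5 and leaving out each library. The edgeR fit was first tested on simulated counts, for tumors against MYCN ganglia, MYCN against control ganglia and MYCN het against MYCN ganglia. The list genes got their alternatives later, with the data already seen. Counting precision follows the depth of 10692299 to 38618757 counts a library.

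The members and the lists were chosen with earlier results of these data known. List genes named are the 3 called genes with the largest log2 difference in each direction, list and tumor comparison, among those with a mean of at least 1 TPM. Genes most alike were ranked by Pearson r for 4 members, and 1 of them is not reported here. Promoter windows came from RefSeq (GRCm38.p6) and gene positions from the GRCm38 annotation.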

Additional observations from a re-analysis of the deposited data

Results flagged for a closer look

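Among 18 sets of 4 libraries (9 genes in control ganglia and in tumors), 2 had a library far from the others by Dixon's criterion, which chance meets in about 1 in 20 sets. Trp53 was 88.63 TPM in control ganglion replicate 2, where the nearest of the others had 32.25 TPM and the gap made up 0.950 of the range. Cdkn2a was 33.33 TPM in tumor replicate 2, where the nearest had 3.41 TPM and the gap made up 0.923 of the range.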

How the results depend on the processing

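Against MYCN ganglia, the 5 members called became 2 with a minimum fold of 1.5, and 2 to 6 when single libraries were left out. Against MYCN het ganglia, the 6 called became 3 with a minimum fold of 1.5, and 2 to 6 when single libraries were left out. Against control ganglia, between 5 and 7 were called in every setting. In all MYCN against all transgene-free ganglia no member was called in any setting. Alternatives in the other ganglion comparisons are given for some members only, and none of these was called. Signs turned when single libraries were left out, for differences that had passed no threshold: against MYCN ganglia, the lowest and highest log2 values were −0.0100 and 3.53 for Cdkn2a, −0.40 and 0.12 for Ccng1 and −0.21 and 0.11 for Sesn2, and against MYCN het ganglia −0.013 and 0.26 for Ccng1. In all MYCN against all transgene-free ganglia they were −0.012 and 0.42 for Trp53, −0.029 and 0.21 for Mdm2 and −0.026 and 0.24 for Mdm4, and Trp53 was −0.047 with a depth term. The interaction for Cdkn2a was 3.08 ± 2.83 (SE), −1.56 with the replicate block and −0.87 with the depth term. It rests on control het ganglia with a single count of Cdkn2a, so none of these values is usable as a fold. The cause of these turns was not tested. Calls of Cdkn1a held in all settings of the 3 tumor comparisons. The number of genes called against MYCN ganglia was 5755, and 2677 with a minimum fold of 1.5. Deviations of same-numbered libraries had a median r of −0.014 over 25 pairs (−0.315 to 0.319), and those of other pairs −0.021 over 76 (−0.324 to 0.324). In groups this small such values cannot decide whether the numbers pair libraries. In ganglia the numbers did follow depth. Replicates 1 and 2 held 10692299 to 14221960 counts, among them both MYCN het libraries, and replicates 3 and 4 held 24873952 to 36337191. With the replicate block 5, 5 and 7 members were called against MYCN, MYCN het and control ganglia. Cdkn2a has no value where 10 counts were required in every library. Low counts of Cdkn2a in ganglia limit its precision.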
